A study of Mus musculus with 10 samples.

Results

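Glycolysis is the cytosolic pathway that splits glucose into pyruvate, which lactate dehydrogenase then reduces to lactate. Its first steps use ATP to phosphorylate the hexose and cut it into trioses, and its later steps return ATP and NADH. Below, the enzymes before aldolase are called upper, and those from aldolase onward lower. Brain endothelial cells are known for a high glycolytic flux, for the glucose transporter GLUT1 on their surface and for a surface coat of glycoproteins and proteoglycans, the glycocalyx. The data described here are for 10 enzymes of this route, chosen by gene name from the FPKM table: *Hk1*, *Hk2*, *Gpi1*, *Pfkl*, *Pfkp*, *Aldoa*, *Tpi1*, *Pgk1*, *Pkm* and *Ldha*. All 10 were found, on 11 of 27024 rows with a gene name, because *Aldoa* stands on 2 rows.

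The samples were bulk RNA-seq libraries of bEnd.3, an immortalised mouse brain endothelial line of wild-type genotype, grown in DMEM of high glucose content with serum. Saline was given to 5 samples (replicates 1, 2, 3, 4 and 5) and StcE, at 5 nM for 16 h, to 5 samples (replicates 1, 2, 3, 5 and 6). StcE is a secreted bacterial metalloprotease that cuts proteins carrying mucin domains. No group with an inactive form of the enzyme was analysed here, and the labels do not say whether the replicates were separate cultures, so p-values measure the spread between these samples, which may be technical. In bulk RNA, fewer cells of a type and less RNA per cell cannot be told apart.

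Each value is in FPKM, fragments per kilobase scaled to the mapped fragments of each library. The length that gave whole fragments was that of all annotated exons of a gene together, which can exceed that of any 1 transcript. Whole fragments could be recovered in every sample for 25900 genes. Over these genes alone they came to between 21955665 and 29061595 per saline library and between 21903332 and 33202334 per StcE library. Between 330 and 583 fragments per library lay behind *Hk2*, the enzyme with the lowest mean level, and between 67894 and 108759 behind *Pkm*. The 10 endothelial markers examined all had a mean of at least 1 FPKM, and their summed level was 1593 to 1743 FPKM with saline and 1511 to 1614 FPKM with StcE. *Pecam1*, *Flt1*, *Tek* and *Tie1* of these were lower after StcE (limma adjusted p of 0.0425, 0.00775, 0.00857 and 0.00295), and the part of this shift in the results below was not tested. The 7 mural and fibroblast markers summed to at most 0.405 FPKM in any library, with *Rgs5* and *Lum* among those at 0 or without a row. The 8 astrocyte and neuron markers summed to 1.997 to 2.77 FPKM with saline and 2.59 to 3.27 FPKM with StcE, mostly *Tubb3*, which was higher after StcE (limma adjusted p = 0.0227). The 7 microglia and leukocyte markers summed to between 17.7 and 21.8 FPKM in all libraries, nearly all of it *Cd68*, and the 5 epithelial markers to at most 1.97 FPKM, with *Cdh1* at 0 or without a row.

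The 10 enzymes spanned a wide range of levels. With saline, the enzymes from aldolase onward were the more abundant in mRNA. *Pgk1*, whose enzyme makes the first ATP of the lower steps, led at 634.1 ± 17.5 FPKM (SD, n = 5), and *Pkm*, pyruvate kinase, followed at 576.4 ± 9.71 FPKM. *Aldoa*, the aldolase that splits the 6-carbon sugar, stood at 502.2 ± 8.78 FPKM, and *Ldha*, which makes lactate from pyruvate, at 386.2 ± 5.09 FPKM. *Tpi1*, which interconverts the pair of trioses, stood at 203.7 ± 4.41 FPKM. All 5 upper enzymes were lower than these. *Gpi1*, which turns glucose 6-phosphate into fructose 6-phosphate, had 61.3 ± 1.80 FPKM, *Pfkl*, the liver-type phosphofructokinase, 54.3 ± 1.31 FPKM, and *Hk1*, the main hexokinase of brain, 50.5 ± 2.30 FPKM. *Pfkp*, the platelet-type phosphofructokinase, had 4.16 ± 0.129 FPKM and *Hk2*, the hexokinase of muscle and fat, 2.51 ± 0.245 FPKM.

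This order was the same in each of the 10 samples. *Pgk1* exceeded *Hk2* by 252.4-fold in the saline means and by 259.1-fold in the StcE means. The ranges of neighbours in the order did not overlap within either group, except for *Pfkl* and *Hk1* with saline, where saline replicate 4 had 53.9 FPKM of *Hk1* and saline replicate 3 had 53.2 FPKM of *Pfkl*. Levels are compared per length of all annotated exons here, and the order may depend on the length used. That length was 5001 bases for *Pkm* and 2244 for *Pgk1*, against 2432 and 1825 in their longest coding transcripts. The order per transcript length was not examined. Sequence shared with pseudogenes, given below, may also lower some levels.

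**Figure D1:**
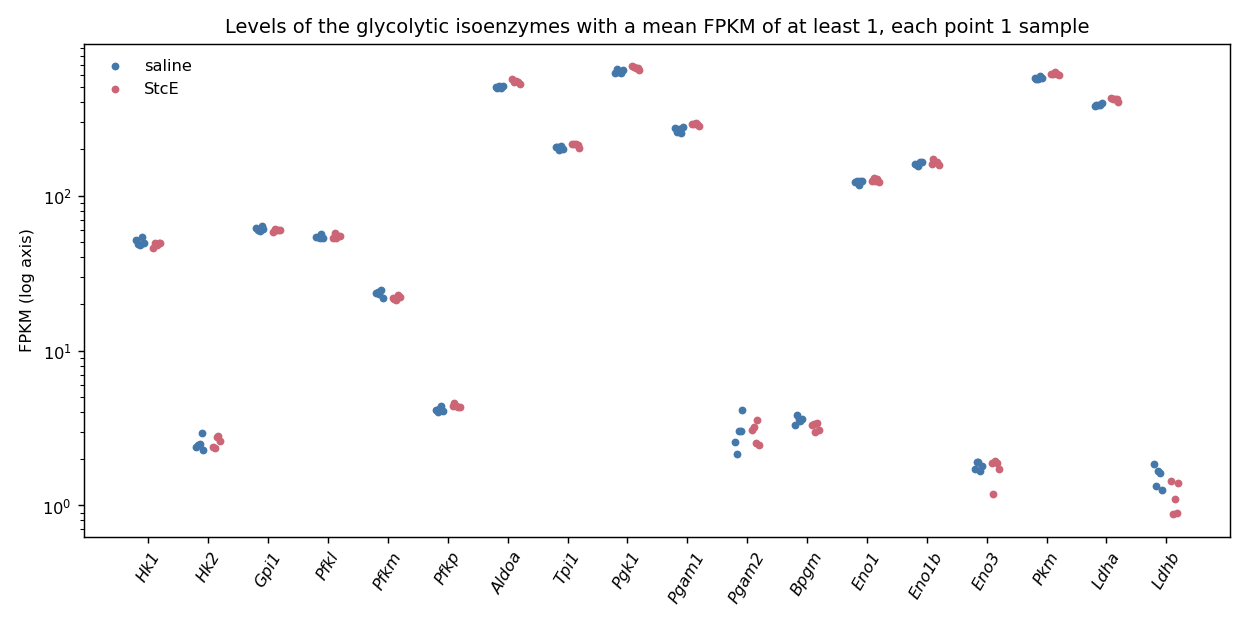
FPKM (log axis) of the glycolytic isoenzymes with a mean of at least 1 FPKM, in pathway order, with 1 point per sample in blue for saline (n = 5) and red for StcE (n = 5); *Gapdh* and *Adpgk* are not drawn. The enzymes from *Aldoa* to *Ldha* among the 10 stand above 198 FPKM in every sample, and those from *Hk1* to *Pfkp* stand below 64 FPKM.

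At the hexokinase, aldolase and lactate dehydrogenase steps, 1 gene supplied nearly all of the mRNA. *Hk1* made up 94.9% to 95.6% of the summed FPKM of the hexokinase genes with saline and 94.5% to 95.5% with StcE, and *Hk2* made up 4.39% to 5.14% and 4.50% to 5.46%. *Hk3* and *Hkdc1*, further hexokinase genes, had at most 3 fragments in any library. The first row of *Aldoa* held 99.7% to 99.9% of the aldolase signal in each sample, and *Ldha* at least 99.5% of that of *Ldha* and *Ldhb*. Phosphofructokinase was more mixed. *Pfkl* made up 66.1% to 67.3% with saline and 67.0% to 68.8% with StcE, and *Pfkm*, the muscle-type subunit, 27.5% to 29.0% and 25.7% to 27.8%. *Pfkp* made up the rest, 4.90% to 5.17% with saline and 5.23% to 5.59% with StcE, so its share did not overlap between the groups. The FPKM of *Pfkp* itself did overlap (limma adjusted p = 0.192). Among the isoenzyme shares examined, no other was apart between the groups. All shares are of FPKM and depend on the exon length of each gene. For *Pfkp* and *Pfkl* it was 13401 and 6675 bases, against 4145 and 3730 in their longest coding transcripts.

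StcE was compared with saline to ask whether the mRNA of these enzymes moved with removal of mucin-domain proteins from the cells. *Aldoa*, *Pkm* and *Ldha* rose, by 8.25%, 5.91% and 8.55% of the mean FPKM. None of the 10 enzymes fell, and 7 did not pass the test. All 3 calls were lost when the libraries were scaled by the sum of FPKM, at log2 fold changes of 0.10, 0.07 and 0.11 (limma adjusted p of 0.153, 0.278 and 0.124), and those of *Aldoa* and *Pkm* without a filter on low values (0.06001 and 0.143). The test was limma on log2(FPKM + 1), run across the 11062 genes that averaged 1 FPKM or more, with a Benjamini-Hochberg adjusted p below 0.05 over all of them as the threshold. Of all genes tested, 11.9% passed in either direction and 5.52% as higher after StcE, beside 3 of the 10 enzymes. The enzymes were chosen with earlier results of these data known, so this count is a description. *Pkm*, *Aldoa* and *Ldha* ranked 43, 54 and 78 by mean FPKM among the genes tested. The share that passed among genes at such levels was not examined. The log2 fold change was positive for 8 of the 10 enzymes and for 5486 of all 11062 genes tested. Its median was 0.06 over the enzymes, beside -0.00066 over all genes tested. Of the 8, *Hk2*, *Pfkl* and *Pfkp* had 95% intervals that contain 0. The changes were small: the median size of log2 fold change over all 1320 genes that passed was 0.17, and that of no enzyme among the 10 exceeded 0.12.

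*Ldha* reduces pyruvate to lactate and so returns NAD+ to the pathway. Its FPKM in saline replicates 1 to 5 was 380.3, 384.3, 386.3, 386.1 and 394.3. In StcE replicates 1, 2, 3, 5 and 6 it was 429.9, 418.2, 420.8, 422.8 and 404.7. Each StcE sample was above each saline sample, and StcE replicate 6 was the nearest to the saline range. The mean after StcE was 419.3 ± 9.25 FPKM (SD, n = 5), a log2 fold change of 0.12 (95% interval 0.07 to 0.17, SE 0.0215, limma adjusted p = 0.00493). The exact two-sided permutation test over all arrangements of the samples gave p = 0.00794, the smallest it can give.

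*Aldoa* encodes aldolase A, which cuts fructose 1,6-bisphosphate into the trioses. Its FPKM in saline replicates 1 to 5 was 499.9, 493.7, 508.7, 494.9 and 513.8. In StcE replicates 1, 2, 3, 5 and 6 it was 565.2, 542.5, 547.1, 538.5 and 524.8. The groups did not overlap, and StcE replicate 6 was again the lowest of its group. The mean after StcE was 543.6 ± 14.7 FPKM, a log2 fold change of 0.11 (95% interval 0.06 to 0.17, SE 0.0240, limma adjusted p = 0.0113, exact permutation p = 0.00794). Its second row, which corresponds to a separate Ensembl gene of 799 exonic bases upstream of the first (GRCm38 chr7:126800790-126809108), held 9 to 40 fragments per library. That row had 0.463 to 1.53 FPKM with saline and 0.893 to 1.44 FPKM with StcE, and did not pass the test (log2 fold change 0.08, SE 0.154, limma adjusted p = 0.764).

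*Pkm* encodes the muscle-type pyruvate kinases, which make pyruvate and ATP in the last step before lactate. Its FPKM in saline replicates 1 to 5 was 577.6, 567.8, 568.6, 591.9 and 576.0. In StcE replicates 1, 2, 3, 5 and 6 it was 608.0, 612.3, 627.1, 605.4 and 599.3. The groups did not overlap, with saline replicate 4 as the closest to the StcE samples. The mean after StcE was 610.4 ± 10.4 FPKM, a log2 fold change of 0.08 (95% interval 0.04 to 0.13, SE 0.0212, limma adjusted p = 0.0286, exact permutation p = 0.00794). The call of *Pkm* depended on single libraries. It was lost when saline replicate 1, 2 or 3 or StcE replicate 2, 3 or 5 was left out (limma adjusted p of 0.0601, 0.0609, 0.0681, 0.0520, 0.0789 and 0.0516 in that order). The gene row sums the M1 and M2 splice forms, which cannot be told apart in these values.

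The promoters of the 3 enzymes that rose are shown because many glycolytic genes are known targets of hypoxia-inducible factors and of MYC, which bind short core motifs. Each window is the RefSeq sequence of GRCm38.p6 from 250 bases before to 50 after a start, 5′ to 3′ on the gene's strand, with matches in capitals. Where a gene had several windows, the one with the most GENCODE coding starts nearby was taken, or among equals the one with the lowest coordinate. The motif searched was ACGTG or GCGTG, on both strands (CACGT or CACGC), with overlapping matches counted separately, so that CACGTG, the E-box bound by MYC, counts as a pair. The windows lie at chr7:46845554-46845853 on the plus strand (*Ldha*), chr7:126799129-126799428 on the minus strand (*Aldoa*) and chr9:59656326-59656625 on the plus strand (*Pkm*).
Ldha: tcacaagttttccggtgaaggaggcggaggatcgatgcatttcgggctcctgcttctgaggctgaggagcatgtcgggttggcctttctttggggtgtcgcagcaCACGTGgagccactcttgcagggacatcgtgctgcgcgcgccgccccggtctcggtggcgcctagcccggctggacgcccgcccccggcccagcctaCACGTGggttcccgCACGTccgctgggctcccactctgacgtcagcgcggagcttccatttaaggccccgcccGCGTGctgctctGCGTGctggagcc
Aldoa: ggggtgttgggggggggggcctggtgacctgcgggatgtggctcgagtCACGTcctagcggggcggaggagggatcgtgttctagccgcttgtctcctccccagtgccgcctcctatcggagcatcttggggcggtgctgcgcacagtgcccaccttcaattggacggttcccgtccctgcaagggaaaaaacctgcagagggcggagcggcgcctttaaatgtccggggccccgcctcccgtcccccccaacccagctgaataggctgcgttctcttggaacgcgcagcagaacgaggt
Pkm: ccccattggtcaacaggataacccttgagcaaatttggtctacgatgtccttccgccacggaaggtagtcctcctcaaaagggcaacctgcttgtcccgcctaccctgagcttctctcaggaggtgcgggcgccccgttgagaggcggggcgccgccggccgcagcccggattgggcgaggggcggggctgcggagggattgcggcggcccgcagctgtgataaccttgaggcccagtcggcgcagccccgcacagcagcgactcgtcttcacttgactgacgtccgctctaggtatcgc

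The window of *Ldha* held 7 matches, including CACGTG in 2 places, that of *Aldoa* held 1 match and that of *Pkm* none. A second *Pkm* window further into the gene (chr9:59656977-59657276) held 2 matches. Over the 10 enzymes, with 1 window each, 6 had a match: *Ldha* 7, *Pfkp* 4, *Hk2* and *Pgk1* 2 each, and *Pfkl* and *Aldoa* 1 each. *Hk1*, *Gpi1*, *Tpi1* and *Pkm* had none in these windows, but a second window of *Hk1* (chr10:62340372-62340671) held 5. By comparison, 43.8% of all 32851 windows and 64.2% of the windows of genes tested held a match, so the share among the enzymes was near the background. CACGTG was found in 7.15% of all windows and 10.5% of those of genes tested, and in 1 of the 10 windows of the enzymes. A match is a run of letters and was not tested for binding.

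Groups that did not overlap, with StcE above saline, were found for *Ldha*, *Aldoa* and *Pkm* and for 4.85% of all genes tested (10.7% in either direction). *Pgk1* and *Tpi1* overlapped between the groups. *Pgk1* had 623.3, 655.0, 627.7, 614.4 and 649.9 FPKM with saline and 682.8, 674.8, 671.3, 668.2 and 643.2 FPKM with StcE. The overlap of *Pgk1* came from StcE replicate 6, which lay below saline replicates 2 and 5. *Tpi1* had 205.3, 205.2, 198.5, 209.5 and 200.1 FPKM with saline and 214.9, 215.5, 214.7, 213.8 and 204.5 FPKM with StcE. StcE replicate 6 stood apart from the other 4 samples of its group here too. The log2 fold changes were 0.08 for *Pgk1* (95% interval 0.02 to 0.13, limma adjusted p = 0.0800, exact permutation p = 0.0238) and 0.06 for *Tpi1* (0.01 to 0.11, limma adjusted p = 0.107, exact permutation p = 0.0317). Without StcE replicate 6 both passed the threshold, with limma adjusted p of 0.0430 and 0.0473, and 5 of the 10 enzymes were then called. In that fit 1142 of all 11062 genes passed, 550 of them as higher.

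**Figure D2:**
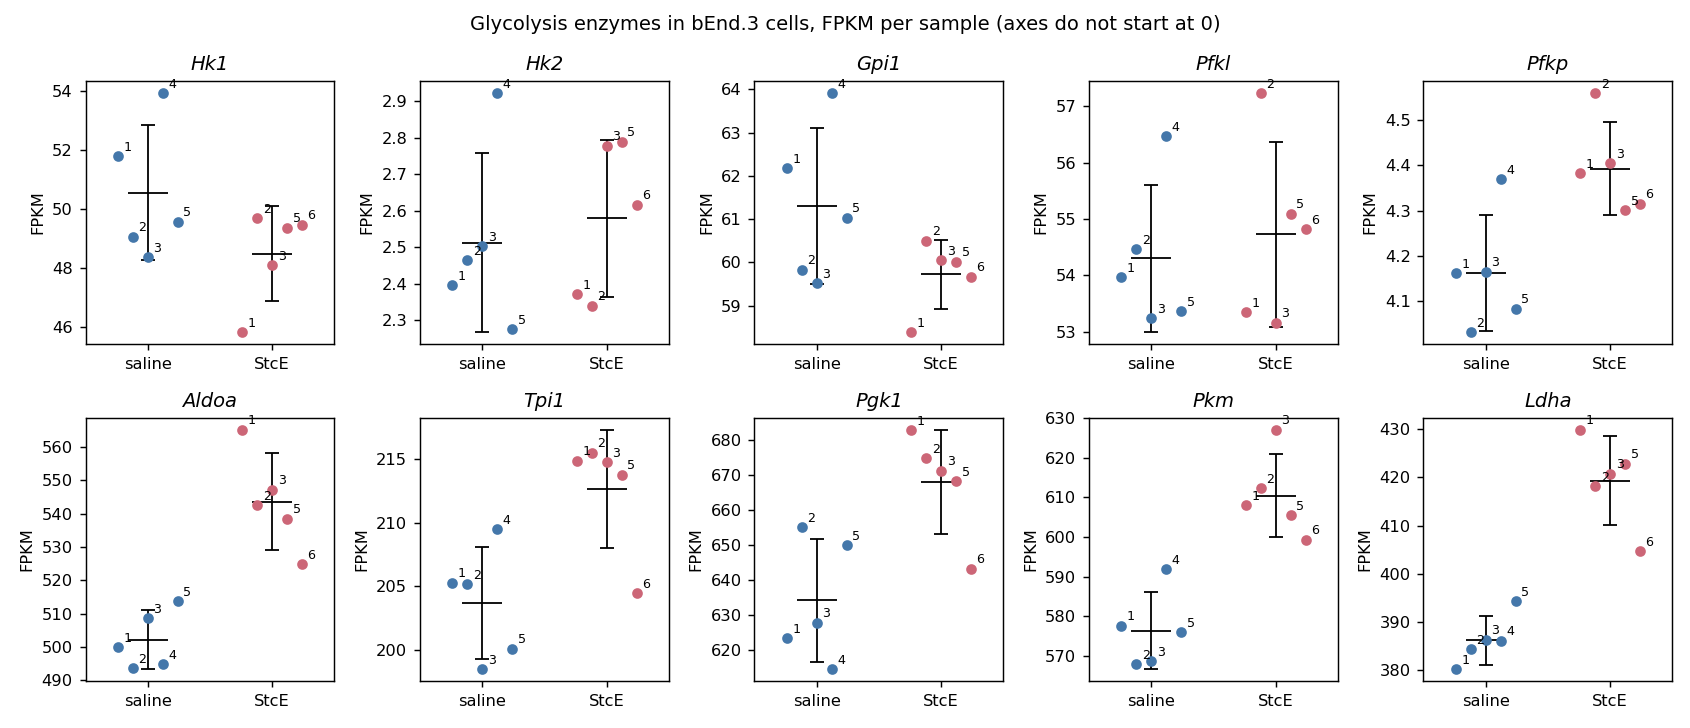
FPKM of the 10 enzymes per sample, saline in blue and StcE in red, with the replicate number beside each point and the mean ± SD (n = 5) in black; axes do not start at 0. The groups are apart for *Aldoa*, *Pkm* and *Ldha* and overlap for the other 7 enzymes, and StcE replicate 6 is the lowest of its group for all 5 enzymes in the lower row.

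The upper enzymes, those before aldolase, did not pass the test in either direction. *Hk1* phosphorylates glucose as it enters the cell. It had 51.8, 49.1, 48.4, 53.9 and 49.6 FPKM with saline and 45.8, 49.7, 48.1, 49.4 and 49.5 FPKM with StcE, a log2 fold change of -0.06 (95% interval -0.13 to 0.02, limma adjusted p = 0.293). *Gpi1* had 59.5 to 63.9 FPKM with saline and 58.4 to 60.5 FPKM with StcE, a log2 fold change of -0.04 (95% interval -0.09 to 0.02, limma adjusted p = 0.345). Both intervals contain 0, and their upper ends lie below the estimates of *Aldoa*, *Pkm* and *Ldha*. *Pfkl*, a subunit of the enzyme that commits the sugar to glycolysis, had 53.2 to 56.5 FPKM with saline and 53.2 to 57.2 FPKM with StcE, a log2 fold change of 0.01 (95% interval -0.05 to 0.07, limma adjusted p = 0.823). *Pfkp* had 4.03 to 4.37 FPKM with saline and 4.30 to 4.56 FPKM with StcE, a log2 fold change of 0.06 (95% interval -0.00174 to 0.13, limma adjusted p = 0.192, exact permutation p = 0.0238). The overlap of *Pfkp* rested on saline replicate 4. *Hk2* had 2.27 to 2.92 FPKM with saline and 2.34 to 2.79 FPKM with StcE, a log2 fold change of 0.03 (95% interval -0.10 to 0.15, limma adjusted p = 0.794). Its interval is the widest of the 10.

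**Figure D3:**
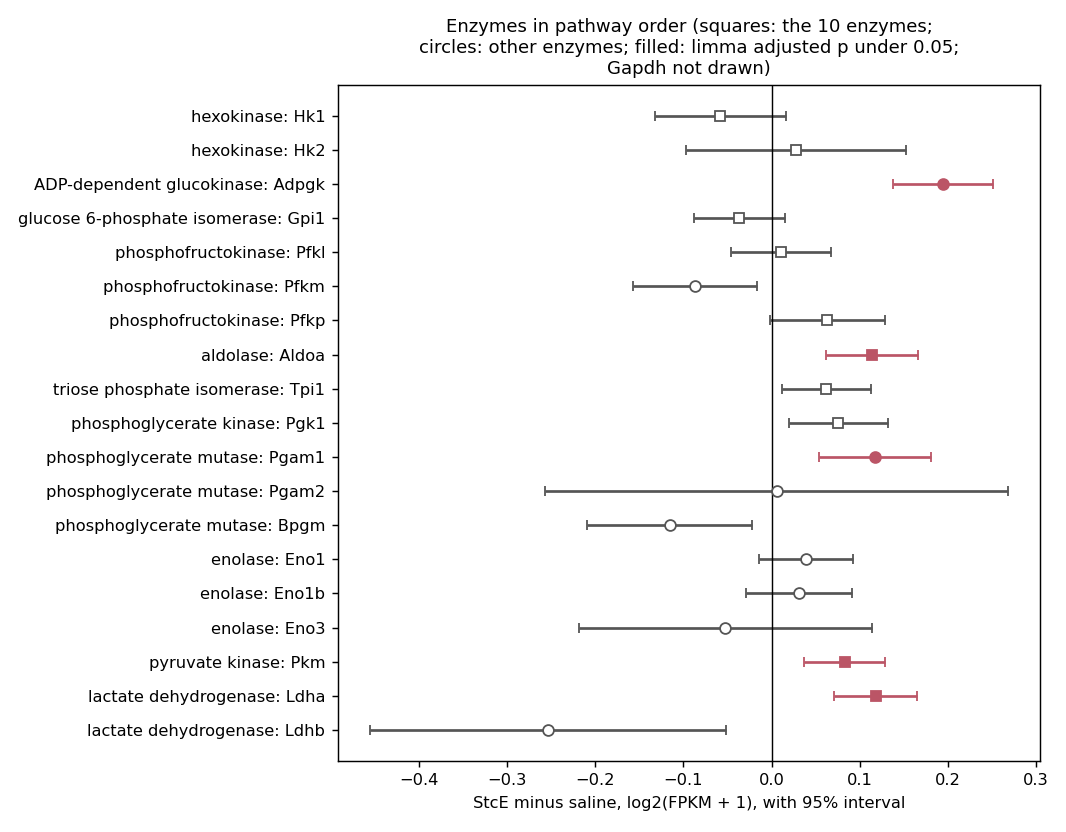
StcE minus saline on the log2(FPKM + 1) scale, with 95% intervals from limma (n = 5 and 5), for enzymes in pathway order; squares are the 10 enzymes, circles other enzymes of the same steps, and filled symbols passed an adjusted p of 0.05. The filled squares are *Aldoa*, *Pkm* and *Ldha* at 0.11, 0.08 and 0.12.

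The same libraries were extreme for several enzymes at once. Saline replicate 4 was the highest of its group for 7 enzymes (*Hk1*, *Hk2*, *Gpi1*, *Pfkl*, *Pfkp*, *Tpi1* and *Pkm*) and the lowest for *Pgk1*. StcE replicate 2 was the highest of its group for 5, of which 4 were upper enzymes, and StcE replicate 1 was the highest for *Aldoa*, *Pgk1* and *Ldha* and the lowest for *Hk1* and *Gpi1*. A split of the 10 enzymes at the aldolase step, made after the values were seen and given as a description, put *Hk1*, *Hk2*, *Gpi1*, *Pfkl* and *Pfkp* at a summed 168 to 182 FPKM with saline and 164 to 174 FPKM with StcE. The lower 5 summed to 2286 to 2334 FPKM with saline and 2376 to 2501 FPKM with StcE. The ranges of the upper sum overlapped, and those of the lower sum did not. The ratio of the lower to the upper sum was 12.6 to 13.7 with saline and 13.9 to 15.2 with StcE. The lower sum holds *Aldoa*, *Pkm* and *Ldha*, whose own groups did not overlap, so these separations are not further results.

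The other enzymes of the same steps filled the gaps between the 10. Of 20 such genes listed, 17 had a row and 10 were tested, of which 2 rose and none fell. Over all genes tested, 5.52% passed as higher and 11.9% in either direction. *Pgam1*, which moves the phosphate of 3-phosphoglycerate, had 275.3, 257.8, 269.7, 252.4 and 277.3 FPKM with saline. After StcE it had 289.6, 289.3, 294.6, 290.7 and 280.6 FPKM. All StcE samples were above all saline samples, a log2 fold change of 0.12 (SE 0.0290, limma adjusted p = 0.0244). *Adpgk*, a glucokinase that uses ADP, rose from 6.43 ± 0.154 to 7.50 ± 0.156 FPKM (log2 fold change 0.19, SE 0.0260, limma adjusted p = 0.000801). *Eno1* and *Eno1b*, the near-identical enolase genes of the next step, had log2 fold changes of 0.04 and 0.03 (limma adjusted p of 0.329 and 0.508), from saline means of 122.6 and 160.8 FPKM. *Pfkm* had 23.3 ± 0.978 FPKM with saline and 21.9 ± 0.659 FPKM with StcE (log2 fold change -0.09, limma adjusted p = 0.102), and *Ldhb*, the lactate dehydrogenase subunit of heart, 1.54 ± 0.244 and 1.14 ± 0.265 FPKM (-0.25, 0.0992). *Bpgm*, which makes 2,3-bisphosphoglycerate, had a log2 fold change of -0.12 (limma adjusted p = 0.102), *Pgam2* of 0.01 (0.984) and *Eno3* of -0.05 (0.702). *Hk3*, *Hkdc1*, *Aldoc*, *Gapdhs* and *Eno2* had a mean below 1 FPKM, and *Pgk2*, *Pklr* and *Ldhc* were not analysed here.

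*Gapdh*, the enzyme between *Tpi1* and *Pgk1*, was measured far less evenly than its neighbours. It had 49.95, 27.2, 4.32, 4.54 and 43.7 FPKM with saline and 44.5, 55.4, 32.7, 40.1 and 31.2 FPKM with StcE. Saline replicates 3 and 4 were far below the other 8 samples, and the groups overlapped. The log2 fold change of 1.18 had a 95% interval from -0.16 to 2.53 (limma adjusted p = 0.236). Sequence at least 95% identical to 88.0% of its longest coding transcript is found in 79 other annotated genes, of which 76 had rows of their own here, and the part of these copies in the spread was not tested.

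**Figure D4:**
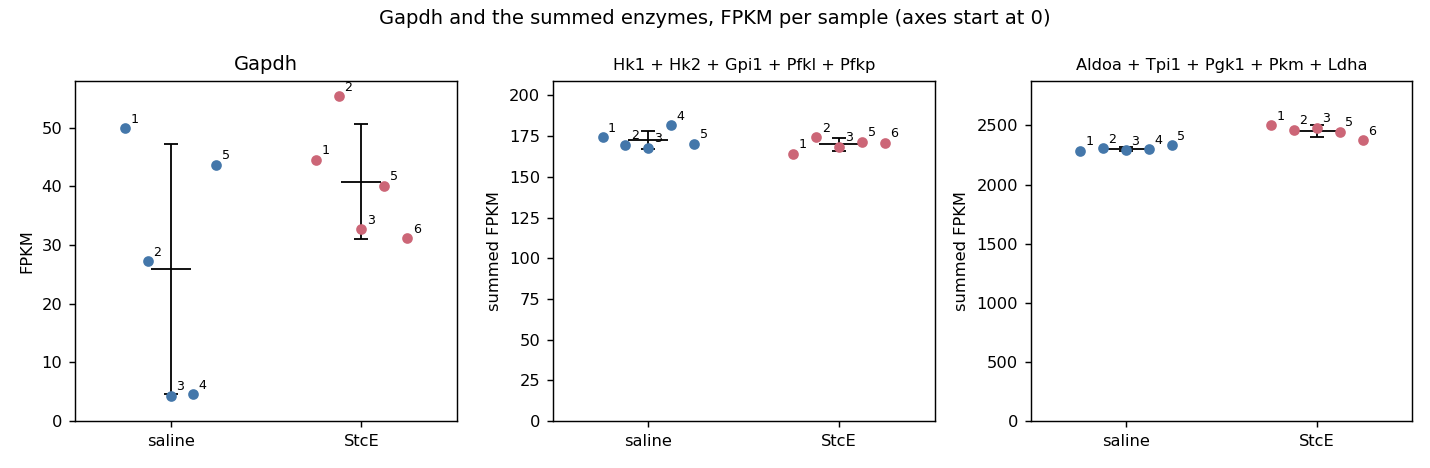
FPKM per sample of *Gapdh* (left), of 5 upper enzymes summed (middle) and of 5 lower enzymes summed (right), saline in blue and StcE in red, with replicate numbers and the mean ± SD (n = 5); axes start at 0. *Gapdh* runs from 4.32 to 49.95 FPKM within the saline group, while the summed lower enzymes run from 2286 to 2334 FPKM in the same samples.

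Sequence shared with pseudogenes bears on the values of several enzymes. At 95% identity or more over at least 150 bases, copies elsewhere covered 68.8% of the transcript of *Pgk1*, 65.5% of *Pkm*, 55.0% of *Ldha*, 50.2% of *Gpi1* and 19.3% of *Tpi1*. None was found for *Hk1*, *Hk2*, *Pfkl*, *Pfkp* or *Aldoa*, so of the 3 enzymes that rose, *Aldoa* alone had no such copy. The copies' own rows were low beside the enzymes: *Gm6560*, the copy of *Pkm*, had means of 18.3 and 19.3 FPKM with saline and StcE, *Tpi-rs11* 19.4 and 19.1 FPKM, *Pgk1-rs7* 3.82 and 4.34 FPKM, and the highest copy of *Ldha*, *Gm11814*, 1.22 and 1.09 FPKM. None of these 4 passed the test (limma adjusted p of 0.389, 0.972, 0.126 and 0.517). An annotated gene on the same strand, *Gm49759*, overlapped 15.3% of the exons of *Pkm*, and how reads there were assigned is not given in the sources used here. On the opposite strand *Gm26762* overlapped 11.5% of the exons of *Gpi1* and *Pitrm1* 5.58% of those of *Pfkp*. The library kit marked strand, but whether the counting used it is not stated.

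Genes around the pathway were described from lists of transport, branch and regulator genes. Over all genes tested, 11.9% passed in either direction and 5.52% as higher, and the counts in each list are descriptions beside those shares. Of 5 glucose and lactate transport genes tested, *Slc16a3*, the lactate exporter MCT4, rose from 9.90 ± 0.293 to 12.0 ± 0.252 FPKM. Its FPKM was 9.64, 9.93, 9.76, 10.4 and 9.76 with saline and 11.9, 12.4, 11.8, 12.0 and 11.8 with StcE, groups that did not overlap (log2 fold change 0.26, SE 0.0263, limma adjusted p = 0.000127). *Bsg*, the chaperone of these exporters and the highest of the list, had 256.6 and 259.8 FPKM (log2 fold change 0.02, limma adjusted p = 0.602). *Slc2a1*, which encodes GLUT1 and was singled out after its values were seen, had 35.6 ± 1.62 and 36.8 ± 0.977 FPKM (0.05, 0.377). None of the 3 tested genes that set fructose 2,6-bisphosphate, the activator of phosphofructokinase, passed the test in limma, and 1 of them had an unadjusted p under 0.05. The highest, *Tigar*, had 7.03 and 7.60 FPKM (0.10, 0.0863).

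At the entry of pyruvate into mitochondria, 1 of 13 genes rose and 1 fell, with a median log2 fold change of 0.02. The share over all genes tested was 11.9% in either direction. *Pdk2*, a kinase that switches pyruvate dehydrogenase off, fell from 2.93 ± 0.271 to 2.03 ± 0.152 FPKM (log2 fold change -0.37, limma adjusted p = 0.00160). *Pdp2*, a phosphatase that switches it back on, rose from 1.47 ± 0.0536 to 2.003 ± 0.135 FPKM (0.28, 0.00189). The more abundant *Dld*, a subunit shared by several dehydrogenases, had 31.9 and 31.8 FPKM (-0.00473, 0.946). Of 20 genes of the citric acid cycle list, 2 rose and 2 fell. Both that rose encode cytosolic enzymes: *Idh1*, which makes NADPH, rose from 10.2 ± 0.455 to 15.8 ± 0.709 FPKM (0.58, limma adjusted p = 1.80e-06), and *Aco1*, an aconitase that doubles as an iron sensor, by a log2 fold change of 0.09 (0.0390). Both that fell act in mitochondria: *Idh2* (-0.16, 0.0305) and *Suclg2* (-0.12, 0.0479). *Mdh2*, the highest of the list, had 113.9 and 112.4 FPKM (-0.02, 0.579).

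Branches that leave glycolysis moved in part, beside 11.9% of all genes tested that passed in either direction. In serine synthesis, which starts from 3-phosphoglycerate, all 3 enzymes rose. *Phgdh* went from 99.4 ± 2.25 to 111.6 ± 5.35 FPKM (log2 fold change 0.16, limma adjusted p = 0.00826), *Psat1* from 46.5 ± 1.28 to 50.5 ± 1.38 FPKM (0.12, 0.0145) and *Psph* from 6.38 ± 0.392 to 7.51 ± 0.332 FPKM (0.21, 0.00857). The glycerol 3-phosphate genes tested beside them did not pass the test. Of 8 pentose phosphate genes, *Pgd* and *Tkt* rose (0.13 and 0.12, limma adjusted p of 0.0169 and 0.0130), while *Taldo1*, the highest, had 248.5 and 247.8 FPKM (-0.00431, 0.934). In the hexosamine and nucleotide sugar branch, the row named *Pgm1* had the highest mean, 33.9 and 34.8 FPKM (0.04, 0.315). The rows named *Pgm1* and *Pgm2* did not give whole fragments with the GENCODE exon lengths of those names. Which of these genes the row measures is therefore uncertain. Of 4 gluconeogenesis genes tested, none rose and 2 fell: *Pcx*, pyruvate carboxylase (-0.23, 0.0140), and *G6pc3*, the widely expressed glucose 6-phosphatase (-0.13, 0.0244).

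**Figure D5:**
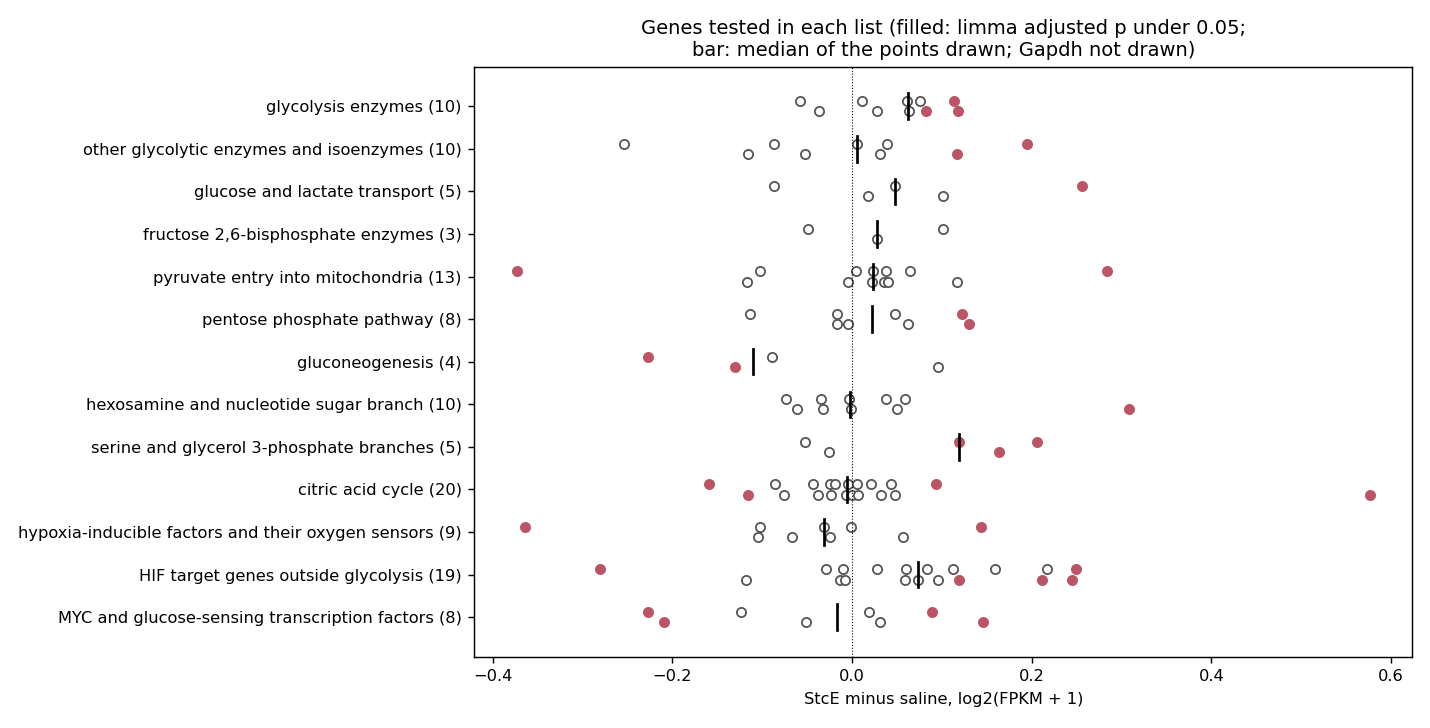
StcE minus saline on the log2(FPKM + 1) scale for each gene tested in each list, with the number tested in parentheses; filled points passed a limma adjusted p of 0.05, bars are medians of the points drawn, and *Gapdh* is not drawn. The 10 glycolysis enzymes lie between -0.06 and 0.12, and *Idh1* at 0.58 is the farthest point to the right.

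Regulators known to act on glycolytic genes moved in both directions, beside 11.9% of all genes tested that passed in either direction. Among 9 hypoxia-inducible factor and oxygen sensor genes, *Epas1*, which encodes HIF-2α and is the highest of the list, fell from 61.8 ± 4.08 to 47.8 ± 3.88 FPKM (log2 fold change -0.36, limma adjusted p = 0.00246), in groups that did not overlap. *Egln3*, a prolyl hydroxylase that marks these factors for breakdown, rose (0.14, 0.0191), and *Hif1a*, singled out after its values were seen, had 39.7 ± 0.850 and 41.3 ± 1.41 FPKM (0.06, 0.1998). Of 19 HIF target genes outside glycolysis, 4 rose and 1 fell, with a median log2 fold change of 0.07. Those that rose were *Tfrc*, the transferrin receptor (0.25, limma adjusted p = 0.000171), *Bnip3*, a mitophagy receptor (0.24, 0.0377), *Vegfa*, the endothelial growth factor (0.21, 0.00288), and *Kdm3a*, a histone demethylase (0.12, 0.0304). *Ndrg1* fell (-0.28, 0.0178). In the list of MYC and glucose-sensing factors, *Myc* rose by a log2 fold change of 0.09 (0.0319) and *Klf2*, a flow-responsive endothelial factor and the highest of the list, from 81.4 ± 4.19 to 90.1 ± 2.53 FPKM (0.15, 0.0219). *Mxd4*, an antagonist of MYC, and *Arrdc4*, an arrestin-domain gene of the glucose response, fell (-0.23 and -0.21, limma adjusted p of 0.00358 and 0.0163). The lists were chosen with earlier results of these libraries known, so their counts are descriptions.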

How the data were processed

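RNA was from 10 bEnd.3 samples, 5 with saline and 5 with StcE. The authors aligned directional paired-end reads to GRCm38 (mm10), and the submitters' processing notes name HISAT2 2.0.5, featureCounts 1.5.0-p3 and DESeq2 1.32.0; the annotation release is not given in the sources used here. The deposited values are FPKM with 1 column per sample, and 22874 rows were empty. Whole fragments, within 0.05 of a fragment plus rounding, were recovered for 96.7% of values above 0 with GENCODE M21 exon lengths, and 25900 genes were whole in every sample. No interval given here was computed from these fragments. The intervals shown are from the limma fits to the FPKM values and reflect the spread between samples.

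Genes with a mean of at least 1 FPKM (11062) were compared between treatments in limma 3.58.1 (lmFit and trended eBayes, R 4.3.3) after taking log2(FPKM + 1). Treatment was the only term, and p-values were adjusted over all of these genes by the Benjamini-Hochberg method; the code was tested on simulated data. A fold change on this scale understates that of low genes. Single enzymes were also tested by exact two-sided permutation. Same-numbered samples did not deviate together (correlations of -0.0966, -0.0225, -0.0265 and 0.0538 for replicates 1, 2, 3 and 5), so the samples were not taken as paired. Copies were searched with BLAST 2.17.0 (at least 95% identity over 150 bases) against GENCODE M21 transcripts.

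The text names all 10 enzymes, the other enzymes of their steps and, in each further list, up to 5 genes past the threshold with the largest changes and the gene with the highest mean. The results of some genes under this rule are not reported here. Members and lists were chosen with earlier results of these data known. The alternatives were another pseudocount, other filters, other scalings, other limma settings, a replicate block and leaving out each sample, and, chosen after seeing the data, 4 more.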

Additional observations from a re-analysis of the deposited data

Results flagged for a closer look

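Of 22 groups of 5 samples examined for the rows of the 10 enzymes, 2 held a sample far from the other 4, and chance flags about 1 group in 20. *Tpi1* was 204.5 FPKM in StcE replicate 6, against 213.8 to 215.5 FPKM in the other StcE samples. The second row of *Aldoa* was 1.44 FPKM in StcE replicate 3, against 0.893 to 1.04 FPKM in the others, at between 9 and 40 fragments per library.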

How the results depend on the processing

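Of 25 alternatives, 4 were chosen after seeing the data. They included scaling by the total of recovered fragments and by the sum of FPKM without *Gm23935*. A correction of each library for GC and length and voom on the recovered fragments were also among them. Over the 25 alternatives, the direction of an enzyme changed in 2 of 250 results. Both were *Pfkl*, with log2 fold changes of -0.00027 when scaled by the sum of FPKM and -0.00497 (without StcE replicate 2) to 0.025 (without saline replicate 4) with 1 sample left out. The second row of *Aldoa* gave -0.0175 (without saline replicate 5) to 0.18 (without saline replicate 4), and also turned negative, at -0.0102, without saline replicate 2. *Aldoa* passed the threshold under 22 alternatives, *Ldha* under 23 and *Pkm* under 16, and all 3 kept their direction in all 75 results. Without a filter on low values, 801 of 27024 genes passed (392 higher, 409 lower) and 1 enzyme, *Ldha*. The SEs of *Aldoa*, *Pkm* and *Ldha* were larger at the same fold changes. Only the set of genes in the fit differed from before, and which part of the fit gave the larger SEs was not tested. Scaled by the sum of FPKM, 776 genes passed (271 higher, 505 lower, that is 34.9% higher against 46.3% before) and 0 enzymes by limma's adjusted p. Under that scaling 3 enzymes had an exact permutation p below 0.05 (6 before). The permutation p-values are unadjusted and were computed for the enzymes only, so no share over all genes stands beside them. Without *Gm23935* in the sum of FPKM, 1284 genes and 3 enzymes passed by limma's adjusted p. With the replicate block (8 samples), 349 genes passed (187 higher) and 0 enzymes, with limma adjusted p of 0.0685 for *Ldha*, 0.0964 for *Aldoa* and 0.133 for *Pkm*, against 885 genes and 4 enzymes in the same 8 samples without the block. Leaving out 1 sample at a time gave 793 (without StcE replicate 3) to 1255 genes, with 838 without saline replicate 1. It gave 2 to 5 enzymes (5 without StcE replicate 6, where 1142 genes passed). With the GC and length trend removed, *Pgk1* passed as well (adjusted p = 0.0284). Among the rows of the enzymes, *Hk2* (330 to 583 fragments per library) and the second row of *Aldoa* (9 to 40) had the fewest fragments. Whether depth limited their results was not tested.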
